A study of Mus musculus with 24 samples.

Results

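The 9 genes described here act in, or next to, the burning of fatty acids in mitochondria: Cpt1a, Cpt2, Acadm, Acadl, Acadvl, Hadha, Hadhb, Acot1 and Ppara. They were taken by gene symbol from the array platform's annotation, and all 9 were found, each with 1 probe set, among 19505 genes measured in 24 mouse tumours. The tumours came from a study of pancreatic ductal adenocarcinoma (PDAC) with 4 groups of 6: control tumours treated with vector, in the labels' word, tumours given BMS754807, tumours given hydroxychloroquine, and tumours given both agents (the combination). BMS754807 blocks the kinases of IGF1R and the insulin receptor, which pass on the signals of insulin-like growth factors and insulin. Hydroxychloroquine builds up in lysosomes and makes them less acid, so that autophagy cannot finish. The title of the study names blocking both as an intervention in the disease. The labels used here do not give the mouse strain, age, tumour model, tumour site, doses or treatment times. Whether the 6 tumours of a group are from 6 different mice is likewise not given, and every error and p therefore measures only how far these samples spread.

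Long-chain fatty acids enter mitochondria as carnitine esters, which the outer membrane enzyme CPT1 makes and the inner membrane enzyme CPT2 turns back into acyl-CoA. Inside, acyl-CoA dehydrogenases begin each round of beta-oxidation, and the trifunctional protein completes the round for long chains, releasing acetyl-CoA. The nuclear receptor PPARA switches on many of these genes when fatty acids are plentiful, and thioesterases such as ACOT1 split acyl-CoA back into free fatty acid. Insulin signalling is known to restrain fatty acid oxidation, and autophagy of lipid droplets is one of its fuel supplies.

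Each value is the log2 signal of a probe set on a Clariom S array, so a difference of 1 is a doubling, and a negative difference means a lower signal in the group named first. Signals of different probe sets have no common scale. All values are means ± SD over 6 tumours unless a lowest, a median and a highest are given. Differences carry the standard error (SE) of limma, a linear model fitted to all 24 arrays, with Benjamini-Hochberg adjusted p over all 19505 genes and a threshold of 0.05. The labelled tissue was checked against markers. The means of 13 epithelial and ductal genes over the 24 tumours ran from 6.51 for Tff1 to 16.87 for Krt7, with Krt8 at 16.28, Krt19 at 15.49, Epcam at 13.52 and Cldn4 at 7.83. Those of 9 acinar genes ran from 2.22 for Ptf1a to 7.61 for Cela1, so the lists overlapped in range, and these means are given without ranking 1 gene above another. Skeletal muscle markers were high in 5 tumours of the 24, and their values stand beside the results they touch.

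The start sites of Hadha and Hadhb face away from each other. The stretch between them, taken from RefSeq's promoter windows (build GRCm38.p6), is shown because both subunits of the trifunctional protein are read from it in opposite directions. It spans chr5:30154981-30155252, is 272 bases long and is printed on the plus strand, the direction of Hadhb, with its 2 GC boxes (GGGCGG) in capitals.
Hadha-Hadhb: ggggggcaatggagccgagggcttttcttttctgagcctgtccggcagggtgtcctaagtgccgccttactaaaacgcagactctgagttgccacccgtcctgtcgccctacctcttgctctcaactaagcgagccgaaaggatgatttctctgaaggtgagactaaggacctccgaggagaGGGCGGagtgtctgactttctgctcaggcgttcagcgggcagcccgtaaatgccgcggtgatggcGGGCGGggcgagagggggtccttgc
Acot1 and Cpt1a are shown because the differences between groups were largest for them. The Acot1 sequence is the 250 bases before its start (chr12:84009252-84009501, plus strand), with a CCAAT box and a GC box read from the other strand (CCGCCC) in capitals. The Cpt1a sequence is a stretch of 30 bases upstream of its start (chr19:3323202-3323231, plus strand), with a nuclear receptor site (AGGTCA, -94 to -89 from the start) and a GC box (-75 to -70) in capitals, both read from the other strand as TGACCT and CCGCCC. Another GC box of Cpt1a at -59 to -54 and a CCAAT box at -19 to -15 lie outside the stretch shown.
Acot1: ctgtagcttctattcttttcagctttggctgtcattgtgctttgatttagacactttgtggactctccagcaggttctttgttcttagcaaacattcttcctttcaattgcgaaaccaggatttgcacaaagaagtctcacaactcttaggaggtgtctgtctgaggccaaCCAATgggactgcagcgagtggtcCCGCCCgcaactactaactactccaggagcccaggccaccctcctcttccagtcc
Cpt1a: cttacTGACCTcctccccgcagccCCGCCC

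RefSeq windows of 300 bases, from 250 before to 50 after the start, were found for all 9 genes and searched on both strands for 7 motifs. A GC box stood in 7 of the 9 windows, against 35.7% of 32851 windows of all genes, and Acadm and Acadvl had none. The windows of Hadha and Hadhb overlap. The only GC box of Hadha, at -188 to -183, is the same site as that of Hadhb at -90 to -85. It is therefore counted in both windows, and the 9 windows are not independent. The single nuclear receptor site AGGTCA was in the windows of Acadm, Acadvl and Cpt1a, against 16.3% of all windows, and CCAAT in those of Acot1 and Cpt1a, against 37.4%. None of the 9 windows held a direct repeat of AGGTCA with 1 base of any kind between the copies, the form that PPAR receptors are known to bind, and 0.0396% of all windows did. TNAAGGTCA, GTAAACA and TGACGTCA, sites of estrogen-related receptors, FOXO factors and CREB, were also in 0 of the 9 windows, against 1.28%, 3.65% and 1.79% of all windows. The direct repeat and TNAAGGTCA both contain AGGTCA. These matches describe letters in a short window and not bound sites, and no motif search was made outside it.

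None of the 9 genes passed the adjusted threshold in any comparison. With BMS754807 alone, 8 of the 9 differed from control by less than 0.30 on the log2 scale and 1, Acot1, by more. Against control, the limma test called 0 of 9 members, as it called 0% of all genes, for BMS754807, for hydroxychloroquine and for the combination. At an unadjusted p under 0.05 the counts were 2 of 9 for BMS754807 (Cpt1a and Acot1; 5.88% of all genes), 0 of 9 for hydroxychloroquine (4.81%) and 1 of 9 for the combination (Cpt1a; 5.06%). One set of 6 control tumours serves all of these comparisons. Differences were below 0 for 8 of 9 members with BMS754807 (49.6% of all genes), 7 of 9 with hydroxychloroquine (50%) and 6 of 9 with the combination (48.3%). The median difference over the members was -0.175, -0.12 and -0.083 in these comparisons, and over all genes it was 0.0017, 0 and 0.0067. In 0 of the 9 genes did the 6 tumours of a treated group lie wholly outside the range of the controls, and such separation was seen in 0.174%, 0.154% and 0.308% of all genes.

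**Figure D1:**
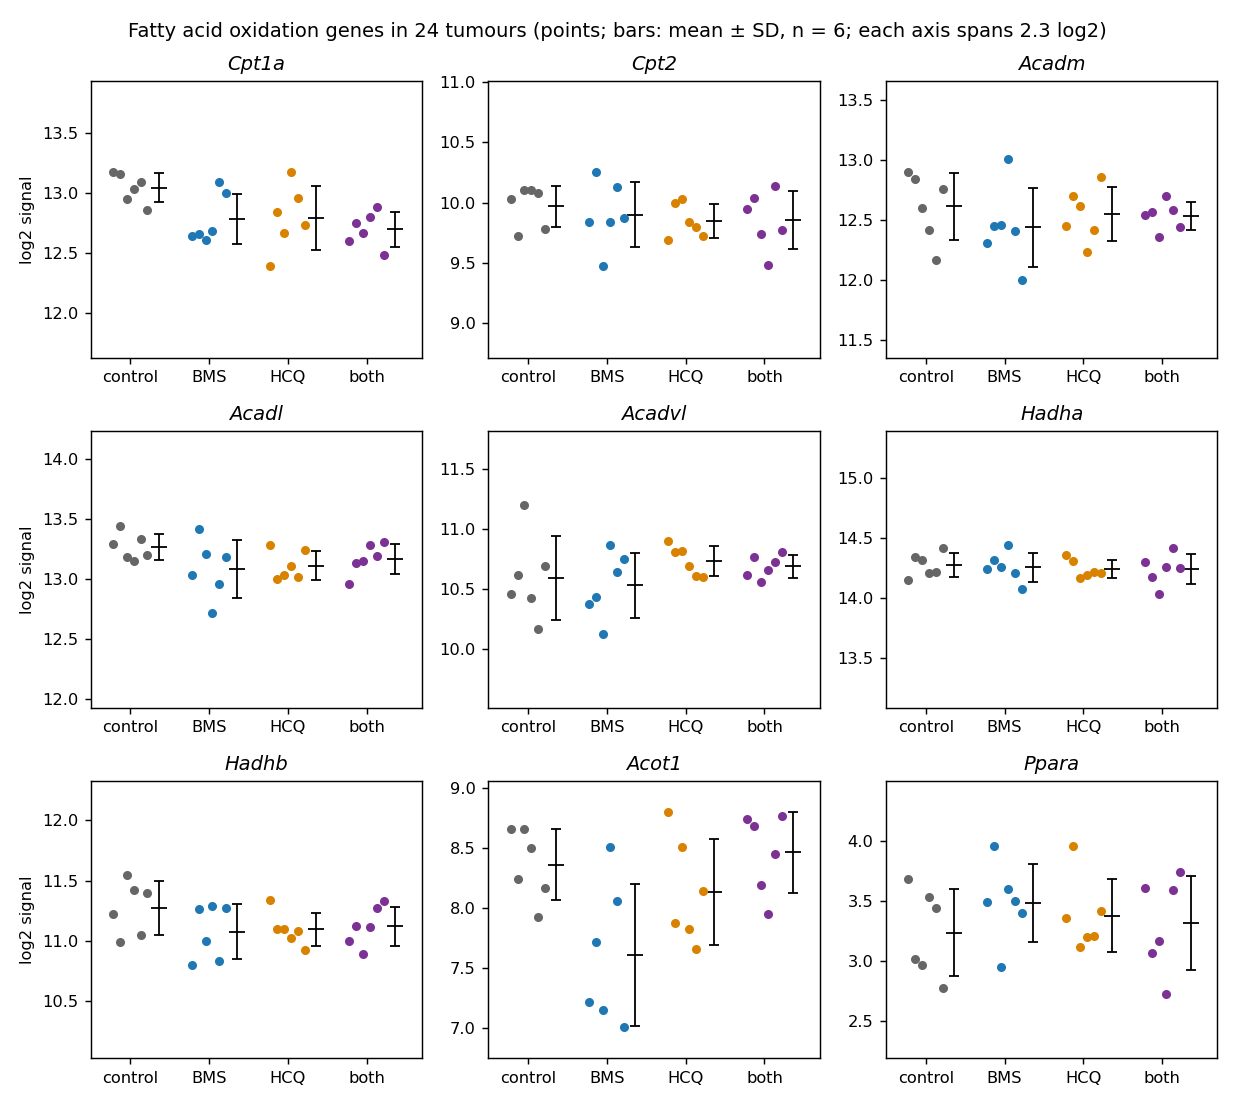
Log2 signal of the 9 fatty acid oxidation genes in 24 tumours. Each point is a tumour, the black bars give mean ± SD over 6 tumours, BMS is BMS754807, HCQ is hydroxychloroquine and both is the combination. Every vertical axis spans the same width in log2, so Hadha appears flat, with all tumours between 14.04 and 14.44, and Acot1 appears spread, from 7.01 to 8.80.

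Cpt1a, which encodes the liver form of the enzyme that admits long-chain fatty acids to mitochondria, was highest in the control group. Its control signal ran from 12.86 to 13.17 with a median of 13.06. In the BMS754807 tumours it ran from 12.61 to 13.09 with a median of 12.67, and 4 of them lay below every control while 2 lay within the control range. The hydroxychloroquine tumours were the most spread, from 12.39 to 13.17 with a median of 12.79, and the combination tumours ran from 12.48 to 12.88 with a median of 12.71. All 6 combination tumours lay below the control mean of 13.04 ± 0.12, yet the highest of them overlapped the lowest control. The difference from control was -0.26 ± 0.12 (SE) for BMS754807 (adjusted p = 0.839, limma), -0.25 ± 0.12 for hydroxychloroquine (adjusted p = 0.979) and -0.35 ± 0.12 for the combination (95% interval -0.60 to -0.096, adjusted p = 0.944). The combination difference corresponds to 0.786 times the control signal. With each tumour left out in turn it stayed between -0.38 and -0.30.

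Between treated groups the Cpt1a differences were smaller: the combination stood -0.083 ± 0.12 from BMS754807 (95% interval -0.33 to 0.17, adjusted p = 0.896) and -0.097 ± 0.12 from hydroxychloroquine (95% interval -0.35 to 0.15, adjusted p = 0.952). Averaged over both backgrounds, tumours given BMS754807 differed by -0.18 ± 0.086 from those not given it (adjusted p = 0.868), and Cpt1a was the 1 member of 9 with an unadjusted p under 0.05 in that comparison (5.72% of all genes). The Cpt1a difference for hydroxychloroquine, averaged in the same way, was of similar size, -0.17 ± 0.086 (adjusted p = 0.645, limma). In the order of group means, combination, BMS754807, hydroxychloroquine and control, the gap of 0.25 from hydroxychloroquine to control was the only one larger than the spread of 0.19 between tumours of a group.

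Cpt2, the partner enzyme on the inner membrane, stood at 9.97 ± 0.17 in control, 9.90 ± 0.27 with BMS754807, 9.85 ± 0.14 with hydroxychloroquine and 9.85 ± 0.24 with the combination. The lowest of the 24 tumours was at 9.47 and the highest at 10.25, both of them treated with BMS754807. Its differences from control were -0.068, -0.12 and -0.115, each ± 0.13 (adjusted p = 0.991, 0.991 and 0.969), and the groups overlapped.

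The 3 acyl-CoA dehydrogenases differ in the chain length they prefer, and their levels were close across groups. Acadvl, for very long chains, was 10.60 ± 0.35 in control, with a lowest of 10.17, a median of 10.54 and a highest of 11.20. In the hydroxychloroquine group it was 10.74 ± 0.12, and in the combination group 10.69 ± 0.095. The 6 hydroxychloroquine tumours, from 10.60 to 10.90, all lay above the control mean, but within the control range. The difference was 0.14 ± 0.14 for hydroxychloroquine (95% interval -0.15 to 0.43, adjusted p = 0.991), 0.097 ± 0.14 for the combination and -0.060 ± 0.14 for BMS754807. Tumours of the BMS754807 group ran from 10.13 to 10.87, and the combination tumours all lay above the mean of that group, with a difference of 0.16 ± 0.14 (adjusted p = 0.799).

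Acadl, for long chains, ran from 13.15 to 13.44 in control with a median of 13.25. The BMS754807 tumours had the widest range, from 12.72 to 13.42 with a median of 13.11; 3 of them lay below every control and 3 inside the control range. Without 1 tumour at a time, the Acadl difference from control lay between -0.245 (without BMS754807 tumour 2) and -0.105 (without BMS754807 tumour 4). Its differences from control were -0.18 ± 0.11 for BMS754807 (5 of 6 tumours below the control mean, adjusted p = 0.924), -0.15 ± 0.11 for hydroxychloroquine (5 of 6) and -0.095 ± 0.11 for the combination (4 of 6). Acadm, for medium chains, was 12.62 ± 0.28 in control and 12.44 ± 0.33 with BMS754807. Its hydroxychloroquine and combination groups stood at 12.55 ± 0.22 and 12.53 ± 0.12. The differences from control were -0.175, -0.068 and -0.083, each ± 0.15, with adjusted p of 0.959, 0.991 and 0.989. Leaving out BMS754807 tumour 4 gave an Acadm difference of -0.29 for that group, and leaving out its tumour 6 gave -0.087. All 6 combination tumours lay between 12.36 and 12.70 for Acadm, inside the control range of 12.17 to 12.90.

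Hadha and Hadhb encode the alpha and beta subunits of the trifunctional protein, which carries the later steps of long-chain beta-oxidation. Hadha was the steadiest of the 9 genes, with means of 14.28 ± 0.10, 14.26 ± 0.12, 14.24 ± 0.075 and 14.24 ± 0.13 in control, BMS754807, hydroxychloroquine and combination tumours. Its spread within groups of 0.107 was smaller than that of all but 0.667% of genes, whose median was 0.327. The 95% interval of its difference from control was -0.20 to 0.16 for BMS754807, -0.21 to 0.14 for hydroxychloroquine and -0.21 to 0.14 for the combination. The differences in these tumours themselves were -0.018, -0.033 and -0.035. The intervals presume independent samples, which the labels do not establish.

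Hadhb was 11.27 ± 0.22 in control, with tumours from 10.99 to 11.55 around a median of 11.31. In each treated group 5 of 6 tumours lay below the control mean, and the group means were 11.08 ± 0.23, 11.09 ± 0.14 and 11.12 ± 0.16 for BMS754807, hydroxychloroquine and the combination. Its differences from control were -0.20, -0.18 and -0.15, each ± 0.12, with adjusted p of 0.924, 0.979 and 0.952. The treated groups overlapped the controls in every case. The deviations of Hadha and Hadhb from the group means over the 24 tumours had a Pearson's r of 0.391 (permutation p = 0.087). Their Spearman's rho was 0.342 (permutation p = 0.131), and r was 0.239 without the 2 tumours farthest from the Hadha median. By the r of 0.391, Hadhb ranked 1637 among all genes in likeness to Hadha. Hadha varied little, with a spread within groups of 0.107, so these values rest on small deviations.

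**Figure D2:**
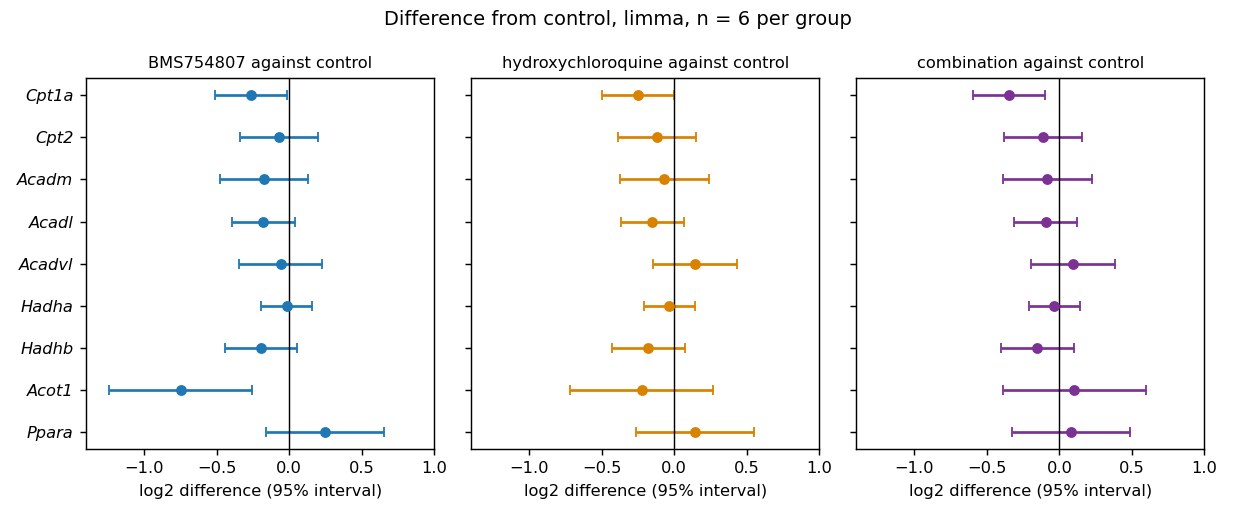
Difference in log2 signal from control for each gene, with 95% intervals from limma, in BMS754807, hydroxychloroquine and combination tumours (n = 6 each). Most intervals include 0; those of Acot1 and Cpt1a with BMS754807, and of Cpt1a with the combination, lie below it, and no adjusted p was under 0.05.

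Acot1, the cytosolic acyl-CoA thioesterase, varied more than any other member between groups, with a range of group means of 0.85. In control its signal ran from 7.93 to 8.66 with a median of 8.37. With BMS754807 alone it ran from 7.01 to 8.51 with a median of 7.47, and 4 of these tumours lay below every control while 2 lay inside the control range. Hydroxychloroquine tumours ran from 7.66 to 8.80 with a median of 8.01, and combination tumours from 7.95 to 8.77 with a median of 8.57. The combination tumours therefore occupied nearly the control range, and all 6 were above the BMS754807 mean of 7.61 ± 0.59.

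The BMS754807 tumours differed from control by -0.75 ± 0.24 (95% interval -1.24 to -0.26, adjusted p = 0.793, limma), which corresponds to 0.595 times the control signal. By p, Acot1 ranked 90 of all genes in that comparison. Hydroxychloroquine alone differed from control by -0.22 ± 0.24 (adjusted p = 0.991) and the combination by 0.10 ± 0.24 (adjusted p = 0.990). Relative to BMS754807 alone, the combination stood 0.85 ± 0.24 higher (95% interval 0.36 to 1.34, adjusted p = 0.301), or 1.80 times its signal. Acot1 was the 1 member of 9 with an unadjusted p under 0.05 there, against 8.61% of all genes, and 0 of 9 members and 0% of genes passed the adjusted threshold. Relative to hydroxychloroquine alone, the combination stood 0.33 ± 0.24 higher (adjusted p = 0.902), and 0 of 9 members had an unadjusted p under 0.05 (5.39% of all genes).

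Whether the effect of BMS754807 on Acot1 depends on hydroxychloroquine was tested as an interaction, the combination minus each single agent plus control. The interaction was 1.08 ± 0.34 (95% interval 0.38 to 1.77, adjusted p = 0.907), and Acot1 was again the only member with an unadjusted p under 0.05 (5.05% of all genes). It does not pass the correction over all genes. In the test for any difference among the 4 groups, Acot1 (adjusted p = 0.531) and Cpt1a (adjusted p = 0.692) had an unadjusted p under 0.05, against 7.21% of all genes. For hydroxychloroquine averaged over both backgrounds, 0 of 9 members did (8.09% of all genes), and Acot1 stood at 0.31 ± 0.17 (adjusted p = 0.656).

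Acot1 has a near-identical neighbour, Acot2, whose enzyme works inside mitochondria, and a probe set of either gene may also take up the other's transcript. Acot2 had its own probe set, with 9.13 ± 0.32 in control, 8.89 ± 0.31 with BMS754807, 9.05 ± 0.27 with hydroxychloroquine and 9.03 ± 0.39 with the combination. Its difference from control with BMS754807 was -0.24 ± 0.18 (adjusted p = 0.948). Over the 24 tumours the deviations of Acot1 and Acot2 from their group means had a Pearson's r of 0.25, given as a description.

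Mean levels of markers of other tissues differed between some groups, and these markers also varied widely between tumours of the same group. All 16 skeletal muscle markers had a mean above control in BMS754807 tumours, by a median of 1.19, and all 16 in hydroxychloroquine tumours, by 1.12, although 0 of the 16 had an unadjusted p under 0.05 in either comparison. The muscle score, the average of the 16 markers after each was centred on its mean over the 24 tumours, ran from -2.03 to 3.67 in control, from -1.85 to 3.96 with BMS754807, from -2.07 to 6.38 with hydroxychloroquine and from -2.03 to 5.05 with the combination. It was over 2 in control tumour 5, BMS754807 tumours 2 and 6, hydroxychloroquine tumour 5 and combination tumour 1, and Acot1 in these tumours was 7.93, 7.72, 7.01, 7.66 and 8.74. In the rest of the hydroxychloroquine group, tumours 2 and 4, with muscle scores of -0.54 and -1.81, had Acot1 values of 7.88 and 7.83. Tumours 1, 3 and 6, with scores of -2.07, 0.49 and 0.29, had Acot1 values of 8.80, 8.51 and 8.14. Within the BMS754807 group, tumours 4 and 5 had the lowest muscle scores, -1.64 and -1.85, and were the only ones inside the control range for Acot1, at 8.51 and 8.06. The other 4 had scores of -0.21, 0.20, 2.86 and 3.96 and Acot1 values of 7.15, 7.22, 7.01 and 7.72. Among these 4, Acot1 did not follow the order of the scores, and the cause of the low values was not tested. In bulk tissue, fewer cells of a type and less RNA per cell cannot be told apart.

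Without these 5 tumours the Acot1 difference between BMS754807 and control was -0.71, and with the muscle score as a covariate it was -0.68. The combination then stood 0.67 above BMS754807 without the 5 tumours and 0.80 above it with the covariate, and the interaction was 0.89 and 0.96. The difference between the combination and control was -0.038 without the 5 tumours, against 0.10 with them.

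Other members also moved by more than 1.5 times when these 5 tumours were left out. Against control with BMS754807, Hadhb went from -0.20 to -0.34, Acadl from -0.18 to -0.27, Acadvl from -0.060 to -0.175 and Cpt2 from -0.068 to -0.126. With hydroxychloroquine, Acadm went from -0.068 to -0.13, Acadvl from 0.14 to 0.084 and Ppara from 0.14 to 0.22. With the combination, Acadm went from -0.083 to -0.17, Acadl from -0.095 to -0.040, Acadvl from 0.097 to 0.026 and Hadha from -0.035 to -0.058, and Hadha with BMS754807 went from -0.018 to near 0. None of these values passed the adjusted threshold with or without the 5 tumours.

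For adipocyte markers, all 10 measured had a mean above control with BMS754807 (median difference 1.25) and below it with hydroxychloroquine (median -0.47). Of the 10, 1 and 0 had an unadjusted p under 0.05 (limma) in these comparisons. The adipocyte score ran from -1.22 to 1.18 in control and from -2.06 to 4.84 with BMS754807. With this score as a covariate, the Acot1 difference between BMS754807 and control was -0.78. Macrophage markers were below control in 9 of 9 cases with the combination (median -0.61) and endothelial markers in 8 of 8 (median -0.48). Of these, 3 of 9 macrophage and 0 of 8 endothelial markers had an unadjusted p under 0.05 (limma), beside 5.06% of all genes. Their part in the Cpt1a value of the combination group was not tested. Fibroblast markers were above control in 9 of 9 cases with BMS754807 (median 0.19) and with hydroxychloroquine (median 0.43). Epithelial markers were above it in 12, 8 and 11 of 13 with BMS754807, hydroxychloroquine and the combination. An unadjusted p under 0.05, in either direction, was found for 0 and 1 of the 9 fibroblast markers in their comparisons. For the 13 epithelial markers the counts were 1, 2 and 2, beside 5.88%, 4.81% and 5.06% of all genes. The part of both lists was not tested either. The Cpt1a difference between the combination and control was -0.32 without the 5 muscle-rich tumours and -0.35 with either score as a covariate.

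**Figure D3:**
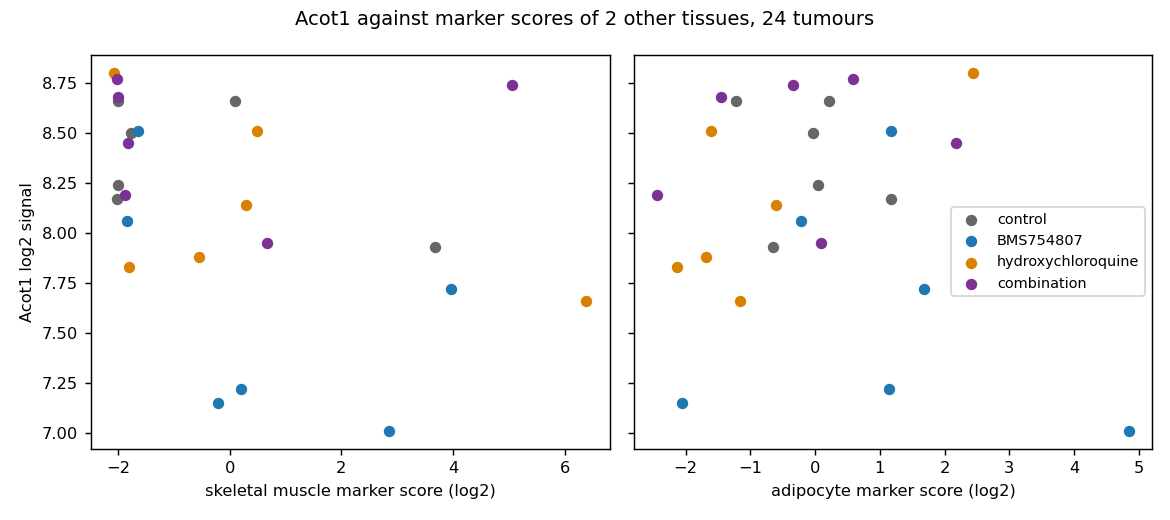
Acot1 log2 signal against the skeletal muscle score (left) and the adipocyte score (right) in the 24 tumours, coloured by group; each score averages marker genes centred on their means. The BMS754807 tumours with the lowest muscle scores, -1.64 and -1.85, have the highest Acot1 of that group, 8.51 and 8.06. The tumour with the highest adipocyte score, 4.84, has the lowest Acot1, 7.01. The next highest score, 2.44, belongs to hydroxychloroquine tumour 1, which has the highest Acot1 of the 24 tumours, 8.80.

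Ppara, the receptor that controls many of these genes, had signals from 2.73 to 3.96 over the 24 tumours. All of them lay below the array medians of 6.79 to 7.03, so Ppara was dim on these arrays. Its means were 3.24 ± 0.36 in control, 3.48 ± 0.33 with BMS754807, 3.38 ± 0.31 with hydroxychloroquine and 3.32 ± 0.39 with the combination. The differences from control were 0.25, 0.14 and 0.082, each ± 0.20, with adjusted p of 0.955, 0.991 and 0.990. The ranges of the 4 groups overlapped.

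Over the 9 genes, the 4 group means of a gene give 27 gaps between neighbours in order, and 2 of them exceeded the spread within groups of that gene. These were the gap of Cpt1a between hydroxychloroquine and control, 0.25 against a spread of 0.19, and that of Acot1 between BMS754807 and hydroxychloroquine, 0.525 against 0.43. All other neighbours lay within the spread between tumours of a group. Control was the highest group mean in 6 genes, Cpt1a, Cpt2, Acadm, Acadl, Hadha and Hadhb, but not in Acadvl, Acot1 or Ppara. The same 6 control tumours enter each of these orders. Neither the gaps nor the highest groups were counted over all genes, so neither count is read as a trait of the 9 genes.

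Tumour by tumour, the 9 genes did not vary as a block. Among the 36 pairs, Pearson's r of the deviations from group means over 24 tumours ran from -0.36 to 0.61 with a median of 0.037, and 20 pairs were above 0. Pairs with Ppara rest on its dim signal. Of the 36 permutation tests, 5 had an unadjusted p under 0.05 and 0 an adjusted one. The highest was Cpt2 with Ppara (r = 0.608, permutation p = 0.0041, adjusted p = 0.147; rho = 0.458, permutation p = 0.036, adjusted p = 0.395; r = 0.471 without the 2 tumours farthest from the Cpt2 median). Next came Acadvl with Hadhb (r = 0.596, permutation p = 0.0096, adjusted p = 0.170; rho = 0.632, permutation p = 0.0053, adjusted p = 0.192; r = 0.553 without 2 tumours). The lowest was Cpt1a with Acot1 (r = -0.363, permutation p = 0.139, adjusted p = 0.412; rho = -0.326, permutation p = 0.171, adjusted p = 0.442; r = -0.272 without 2 tumours).

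**Figure D4:**
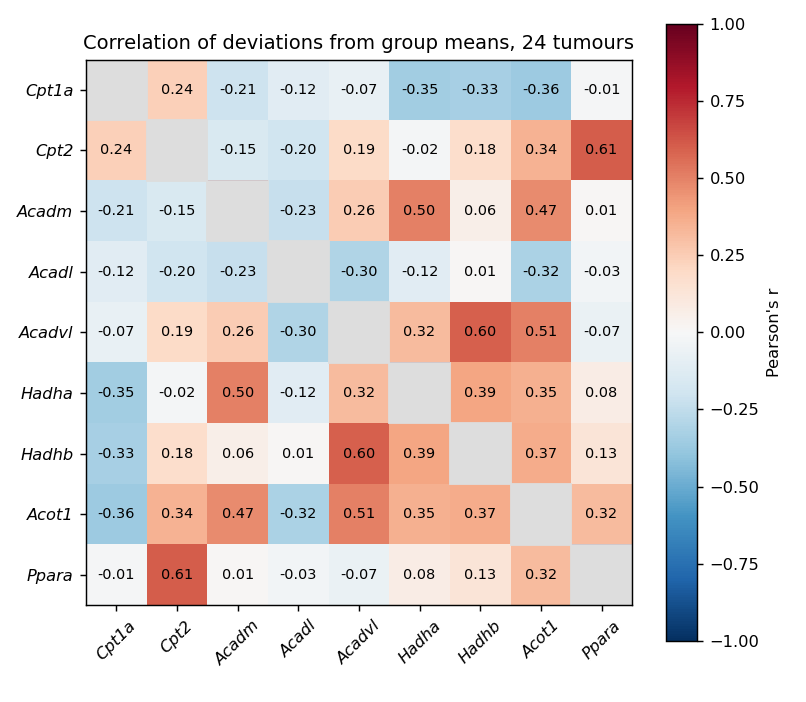
Pearson's r between members for deviations from group means over 24 tumours, with colour from -1 to 1. The matrix is mostly pale, with the highest values for Cpt2 with Ppara, 0.61, and Acadvl with Hadhb, 0.60, and Acadl mostly at or below 0.

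For likeness over all 19505 genes, the closest to each member were described by the same r over 24 tumours. For Cpt1a these were Syt15 (0.81), Vmn2r12 (0.80) and Bsdc1 (0.79), and for Acot1 they were Gprin3 (0.82), Utp4 (0.82) and Slc44a3 (0.80). Acadm was closest to Zfp618 (0.86), Ift80 (0.85) and Ehf (0.82), Acadl to Tpbpa (0.83), and Acadvl to Bcat2 (0.76). The closest genes were Ugt2b34 for Hadha (0.78), Cd209c for Hadhb (0.74), Fam234a for Cpt2 (0.75) and Agbl1 for Ppara (0.73). Each of these r was picked as among the highest over all genes, predicted ones passed over, in only 24 tumours. Such a choice can give high values by itself, and no p was computed for them. No member was among the 3 closest genes of another. Ranks of members were taken in 1 direction per pair, and the nearest of these was Ppara, at 22 for Cpt2.

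The rest of the pathway was read from 6 lists holding 86 other genes, of which 74 were measured. Against control, limma called 0 of the 74 at the adjusted threshold in each comparison. At an unadjusted p under 0.05, 1 was lower and 0 higher with BMS754807, 3 were lower and 2 higher with hydroxychloroquine, and 2 were lower and 1 higher with the combination. These counts are 1.35%, 6.76% and 4.05% of the 74, beside 5.88%, 4.81% and 5.06% of all genes. The median difference of the 74 was 0.015, -0.0067 and -0.0092. For hydroxychloroquine averaged over both backgrounds, 6 were lower and 4 higher at an unadjusted p under 0.05. That is 13.5% of the 74, beside 8.09% of all genes, and 0 passed the adjusted threshold.

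In the transport and activation list, 10 of 14 measured genes were above control with BMS754807 (median 0.097) and 1, Slc27a1, had an unadjusted p under 0.05, in the lower direction. Cpt1b, the muscle form of CPT1, was 6.04 ± 0.48 in control and 5.67 ± 0.35 with BMS754807, a difference of -0.375 ± 0.28 (adjusted p = 0.948). Slc25a20, which carries acylcarnitines across the inner membrane, differed from control by 0.027, -0.075 and 0.012, each ± 0.12. Cd36, which takes up fatty acids at the cell surface and is abundant in fat and endothelium, was the most spread, from 6.69 to 13.54 in BMS754807 tumours, with differences from control of 0.96, -1.14 and -0.55, each ± 0.82. For hydroxychloroquine averaged over both backgrounds, Cd36 differed by -1.32 ± 0.58 (adjusted p = 0.565, limma).

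In the mitochondrial beta-oxidation list 0 of 14 measured genes had an unadjusted p under 0.05 in any comparison, and the list's median difference from control was -0.023, -0.0075 and -0.031. Acads, the short-chain dehydrogenase, differed by -0.13 ± 0.14 with BMS754807. Hadh, which acts on shorter chains than the trifunctional protein, differed by -0.19 ± 0.11 (adjusted p = 0.924). Etfdh, which passes electrons from the dehydrogenases to the respiratory chain, differed by 0.053 ± 0.12.

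Of the peroxisomal list, 0 of 13 measured genes with BMS754807, 1 (Hsd17b4, lower) with hydroxychloroquine and 1 (Acaa1b, lower) with the combination had an unadjusted p under 0.05. Ehhadh, a bifunctional enzyme of peroxisomes and a known PPARA target, stood at 5.63 ± 0.70 in control and 5.97 ± 0.49 with the combination, a difference of 0.33 ± 0.36. Among the 11 other thioesterases, 7 were below control and 4 above with BMS754807, 0 had an unadjusted p under 0.05, and their median difference was -0.052. They ran from -0.45 ± 0.23 for Acot11 to 0.30 ± 0.18 for Acot6, with Acot12 at -0.34 ± 0.29; these 3 were named after their values were seen. In the list of PPARA targets and ketogenesis, 1 of 13 (Vnn1, lower) did with hydroxychloroquine and again with the combination. Pdk4, a kinase that restrains pyruvate use, ran from 2.68 to 8.20 with BMS754807 and from 3.44 to 9.16 with hydroxychloroquine, against 3.46 to 5.33 in control. Its differences were 0.96, 0.88 and 0.53, each ± 0.86. Angptl4, an inhibitor of lipoprotein lipase, differed by 0.20, -0.45 and -0.53, each ± 0.39. Its difference for hydroxychloroquine averaged over both backgrounds was -0.59 ± 0.28 (adjusted p = 0.600, limma).

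Among the receptors and their partners, Pparg was near 12.5 in every group, with differences from control of 0.010, -0.078 and -0.19, each ± 0.15. Ppargc1a, a coactivator of PPAR and estrogen-related receptors that drives mitochondrial genes, stood at 10.57 ± 0.44 in control, 10.24 ± 0.29 with BMS754807, 10.94 ± 0.24 with hydroxychloroquine and 10.92 ± 0.43 with the combination. Its combination tumours, from 10.53 to 11.72, and its BMS754807 tumours, from 9.93 to 10.57, met only at the edge of their ranges. Ppargc1a is also 1 of the 6 brown adipocyte markers. The combination stood 0.68 ± 0.20 above BMS754807 (adjusted p = 0.341), and averaged over both backgrounds hydroxychloroquine tumours stood 0.53 ± 0.14 higher (adjusted p = 0.300). Neither passed the adjusted threshold, and Med1 was the only partner with an unadjusted p under 0.05 against control, with the combination.

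**Figure D5:**
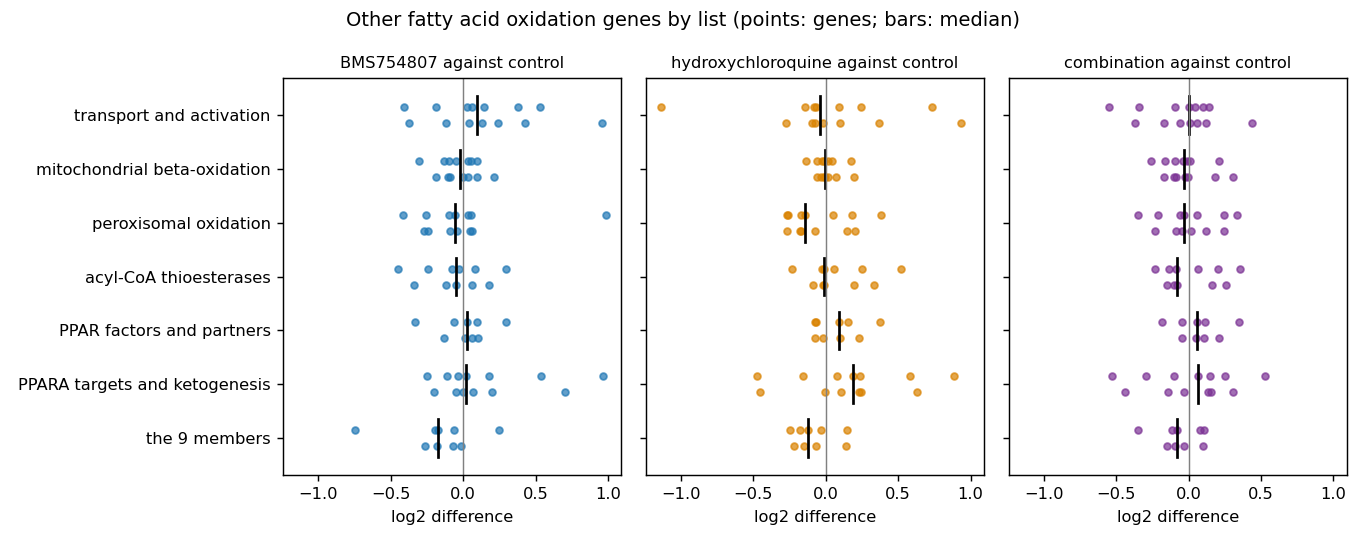
Difference in log2 signal from control for each measured gene of the 6 pathway lists and for the 9 members (points), with the median of each list (black bar), on a common axis. The medians of the 6 lists lie between -0.15 and 0.19, and the member medians at -0.175, -0.12 and -0.083.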

How the data were processed

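Signals of 22206 probe sets were taken from the series' value table, 1 column per tumour. Its values were treated as the log2 signal that the authors deposited; the base was inferred from their range of 1.45 to 19.0 and array medians of 6.79 to 7.03. Per the submitters' processing notes, Transcriptome Analysis Console 4.0 was used; background correction, normalization and build are not given in the sources used here. Of the probe sets, 19572 had 1 symbol and 2634 none; the probe set of highest mean was kept per gene, which dropped 67 and left 19505 genes. Arrays have no read depth; their number limits precision.

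Groups came from the titles. limma 3.58.1 (R 4.3.3; lmFit and eBayes, 20 residual degrees of freedom) estimated group means from all 24 arrays at once, two-sided, with Benjamini-Hochberg adjustment over all genes; compared were the treated groups and control, the combination and either agent, both main effects, the interaction and an F test. Correlations used 100000 permutations within groups. The script was tested on simulated data. The members, pathway lists and marker lists were chosen with earlier results of these data known. Named were all members, 12 pathway genes chosen for their roles, the genes behind small counts, and the 3 genes of highest r per member, passing over predicted genes. Alternatives were a replicate block, array weights, quantile normalization, the mean of probe sets, a filter on dim genes, only the compared groups, muscle or adipocyte score as covariate, no muscle-rich tumours, and each tumour left out. Sequences and motifs are from RefSeq windows (GRCm38.p6).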

Additional observations from a re-analysis of the deposited data

Results flagged for a closer look

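Ppara in hydroxychloroquine tumour 2 was at 3.96, and the next highest tumour of that group was at 3.42, a gap of 0.643 of the group's range. Of 36 groups of 6 tested in this way, 1 stood out, and chance alone sets apart about 1 group in 20. The BMS754807 group also held a Ppara value of 3.96. Both values lie below the array medians of 6.79 to 7.03.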

How the results depend on the processing

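No alternative brought a member past the adjusted threshold in any comparison; the smallest adjusted p of a member was 0.127, for Acot1 in the combination against BMS754807 without BMS754807 tumour 4, against 0.301 with all tumours. Same-numbered tumours were not treated as pairs, since the labels name no pairing. Of 36 correlations between same-numbered tumours of 2 groups, 9 were over 0.1, with a range of -0.25 to 0.30. Correlations between differently numbered tumours were not taken, so these values cannot decide whether the tumours are paired. The correlations between tumours numbered 3 were all above 0, from 0.087 to 0.30, and the cause was not tested. With the replicate block the count of members called was 0 in every comparison and the adjusted p of Acot1 with BMS754807 was 0.828. Small differences near 0 changed sign, and the cause was not tested. Without the muscle-rich tumours, Acot1 in the combination against control was -0.038, Cpt2 and Acadm in the combination against BMS754807 were 0.014 and -0.0175, Cpt2 in the combination against hydroxychloroquine was -0.022, Acadm, Acadl and Ppara for the hydroxychloroquine main effect were -0.075, 0.056 and 0.0455, and the Hadha interaction was -0.0175. With quantile normalization, Cpt2, Hadhb and Ppara in the combination against hydroxychloroquine were -0.020, -0.0075 and 0.0038, Ppara for the hydroxychloroquine main effect was 0.019, and the interactions of Acadvl and Hadha were -0.031 and -0.0024. With array weights, Cpt2 in the combination against hydroxychloroquine was -0.017, Acadm and Ppara for the hydroxychloroquine main effect were -0.019 and 0.031, and the Hadha interaction was -0.0084. With the adipocyte score as covariate, Hadha in the combination against BMS754807 was 0.0063, Hadhb in the combination against hydroxychloroquine was -0.0055, and Ppara for the hydroxychloroquine main effect was 0.038. With the muscle score, the Acadvl interaction was -0.056. Leaving out 1 tumour at a time, the differences that changed sign ranged as follows. With BMS754807 against control, Cpt2 ranged from -0.14 to 0.018, Acadvl from -0.145 to 0.061 and Hadha from -0.055 to 0.017. With the combination against control, Hadha ranged from -0.071 to 0.0053 and Ppara from -0.0097 to 0.20. With the combination against BMS754807, Cpt2 ranged from -0.13 to 0.028, Hadha from -0.052 to 0.024 and Hadhb from -0.010 to 0.091. With the combination against hydroxychloroquine, Cpt2 ranged from -0.051 to 0.081, Acadm from -0.078 to 0.048, Hadha from -0.037 to 0.039, Hadhb from -0.015 to 0.076 and Ppara from -0.14 to 0.058. For the BMS754807 main effect, Cpt2 ranged from -0.066 to 0.012, Acadvl from -0.096 to 0.0072 and Hadha from -0.028 to 0.010. For the hydroxychloroquine main effect, Acadm ranged from -0.033 to 0.069 and Ppara from -0.070 to 0.047. For the interaction, Cpt2 ranged from -0.011 to 0.15, Acadvl from -0.11 to 0.098 and Hadha from -0.019 to 0.057. Acot1 with BMS754807 against control ranged from -0.93 to -0.63 and its interaction from 0.95 to 1.25. Ppara did not pass the filter on dim genes and has no value there. With 6 tumours a group, the number of arrays limits the precision.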
